A study of Mus musculus with 6 samples.

Results

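The genes described here encode the enzymes that turn glucose into lactate, the transporters that bring glucose in and let lactate out, and a set of transcripts known to be induced in low oxygen by hypoxia-inducible factor (HIF). They were listed by name, 40 genes in 6 roles. Of the 40, 37 were measured among 19937 genes, each by its brightest probe set with 1 gene symbol. Gpi1, Eno1 and Gapdh had no probe set of that kind and are not reported here; for Gapdh, 11 probe sets each carried further symbols. Ero1l was measured under its current symbol Ero1a.

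The levels come from mouse CD4+ T cells of B6 spleen. In both groups naive cells were purified, activated with anti-CD3 and anti-CD28 for 2 days, and rested overnight. They were then held with antibody for 20 min and cross-linked with goat anti-hamster antibody for 8 h, so every culture had received anti-CD28 earlier and anti-CD3 at both stimulations. The antibody at restimulation was anti-CD3 alone on 4 Affymetrix Mouse Gene 1.0 ST arrays and anti-CD3 with anti-ICOS on 2, and the comparison asks what engaging ICOS, a costimulatory receptor of the CD28 family, adds. No unstimulated culture is among the 6 arrays, so a difference between the groups gives no level relative to resting cells.

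In oxygen, prolyl hydroxylases mark the alpha subunit of HIF for destruction through the VHL ubiquitin ligase; when they are less active, HIF alpha pairs with ARNT and binds a short DNA core near its targets, which include most glycolytic genes. Activated T cells raise glucose uptake and lactate output even with oxygen present, and HIF, MYC and mTOR are known inputs to that program. Because the hydroxylase EGLN3, the mitophagy receptor BNIP3, the angiogenic factor VEGFA and the small protein ANKRD37 are themselves HIF targets, their transcripts are widely read as reporters of the pathway.

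Levels are given as log2(intensity + 16), where 16 is an offset added before the logarithm, and each value belongs to 1 array. Median intensities of the 6 arrays lay between 109 and 114, and the number of arrays limits the precision. The labels call the arrays biological replicates and do not say whether cultures came from separate animals. Every p therefore rests on the spread between arrays, which may be technical. Within the anti-CD3 group, replicate 4 stood apart from replicates 1 to 3: its gap to the nearest array, over the range of the group, exceeded Dixon's limit for 4 arrays in 6% of all genes. The labels give no batch and no reason to set replicate 4 aside, so each comparison is given in 3 forms: against all 4 anti-CD3 arrays, against replicates 1 to 3, and against replicate 4 alone. Of 10 CD4+ T cell markers 8 were measured, and none lay below the array median on all arrays. The B cell genes Cd79a and Cd79b were also well above it, between 12.10 and 12.35 and between 12.31 and 12.70 on the 6 arrays.

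The median of the glycolytic and HIF target genes lay at 2 levels, and these did not split the arrays by antibody. In anti-CD3 replicates 1 to 3 the median was 10.59, 10.64 and 10.56, and on both anti-ICOS arrays it was 9.17 and 9.28. Anti-CD3 replicate 4, at 9.27, lay with the anti-ICOS arrays and not with its own group. Summed over the 37 genes, intensity was 97710, 99520 and 90989 in replicates 1 to 3, 57445 in replicate 4, and 55014 and 55542 with anti-ICOS. In such bulk RNA, fewer cells of a type and less RNA per cell cannot be told apart.

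**Figure D1:**
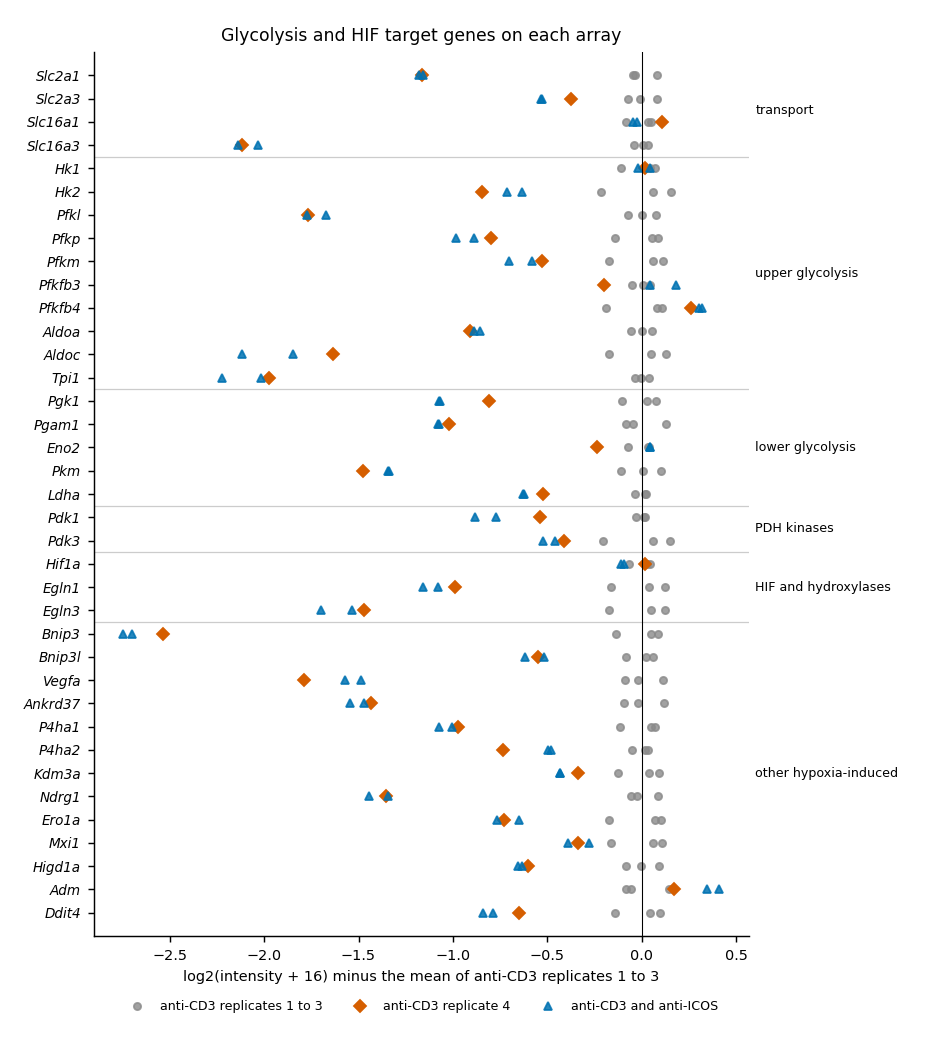
Each row is 1 of the 37 measured genes, by role; the horizontal axis is log2(intensity + 16) minus the mean of anti-CD3 replicates 1 to 3. Grey circles are anti-CD3 replicates 1 to 3, the orange diamond is replicate 4 and blue triangles are the 2 anti-ICOS arrays; for 30 of the 37 genes the diamond and both triangles lie left of all 3 circles.

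Over all 6 arrays, none of the 37 genes passed the test. The median difference, anti-ICOS minus anti-CD3, was -0.65 on the log2 scale, against -0.03 over all genes, and 32 of 37 differences were negative. By limma with Benjamini-Hochberg adjustment over all genes, 0 of the 37 were lower and 0 higher at 0.05 (adjusted p between 0.322 and 0.965), where 0% of all genes were lower and 0.271% higher. At an unadjusted p under 0.05, 24 of the 37 were lower and 1 higher, against 5.56% and 6.24% of all genes. Both anti-ICOS arrays lay below all 4 anti-CD3 arrays in 19 of the 37, against 14.7% of all genes, and above all 4 in 4, against 8.51%.

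Without anti-CD3 replicate 4, 30 of the 37 genes were lower with anti-ICOS and 2 were higher. The median difference was then -0.81, against -0.04 over all genes, and 12.7% of all genes were lower and 17.1% higher. Falls ranged from 1.26-fold for Mxi1 to 6.60-fold for Bnip3, and 15 of the 30 were at least 2-fold. The 2 anti-ICOS arrays were below replicates 1 to 3 in 31 of the 37, against 35.1% of all genes. The spread of replicates 1 to 3 was small beside these differences, with an SD per gene from 0.024 to 0.19.

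Replicate 4 carried much the same difference without anti-ICOS. It lay below replicates 1 to 3 in 32 of the 37 genes, against 42.5% of all genes, and together with both anti-ICOS arrays in 30, against 30.4%. The median of replicate 4 minus replicates 1 to 3 was -0.73, beside -0.81 for the anti-ICOS arrays minus the same replicates. In 32 of the 37 replicate 4 was nearer the anti-ICOS mean than the mean of replicates 1 to 3, and in 13 it was past Dixon's limit. Set against replicate 4 alone, 0 of the 37 were lower and 0 higher by limma with Benjamini-Hochberg adjustment, beside 0% and 0.176% of all genes, and the median difference was -0.06.

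At an unadjusted p under 0.05 in that comparison, 2 of the 37 were lower and 4 higher, against 2.15% and 2.94% of all genes. Pgk1 and Pdk1 were the 2 lower ones, and Pfkfb3, Eno2, Vegfa and P4ha2 the 4 higher ones. The 95% intervals reached between 0.19 and 0.35 to either side of the estimate. For each of the 30 genes that were lower without replicate 4, the interval against replicate 4 lay within 2-fold in either direction. As a single array, replicate 4 adds nothing to the spread behind these intervals, which comes from the other arrays. The intervals thus leave out the variation between replicate 4 and the rest of its group. They do not bound a difference between the antibodies, and do not show that the cultures are alike.

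**Figure D2:**
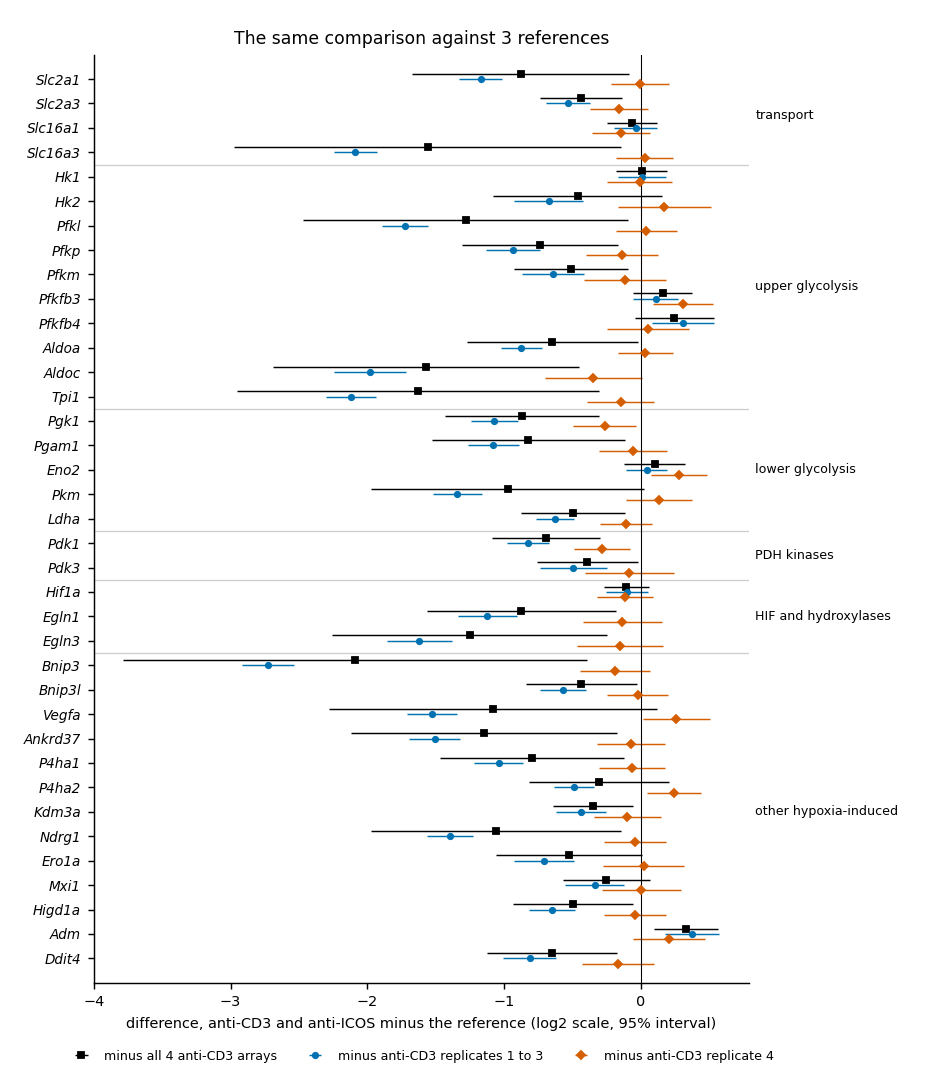
Each row is 1 of the 37 genes; the horizontal axis is the anti-ICOS mean minus a reference, on the log2 scale, with its 95% interval from limma. Black squares use all 4 anti-CD3 arrays, blue circles replicates 1 to 3 and orange diamonds replicate 4 alone; most circles lie left of 0 with short intervals, the squares between with long ones, and 31 of the 37 diamond intervals hold 0.

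Levels of other cell types' markers differed between the same arrays. The myeloid list (10 of 10 measured) summed to 1507, 1555 and 1363 in intensity in anti-CD3 replicates 1 to 3, 2259 in replicate 4, and 2737 and 3429 with anti-ICOS. Without replicate 4, 8 of its 10 genes were higher, against 17.1% of all genes. Csf1r and Cd14 were below the array median on all arrays. Lysozyme, Lyz2, read 6.71, 6.70 and 6.77 in anti-CD3 replicates 1 to 3, 8.53 in replicate 4, and 8.47 and 9.67 with anti-ICOS. For Lyz2 replicate 4 was above replicates 1 to 3, as in 7 of the 10 genes; for Cd14 and Cd68 it lay among them, and for Csf1r it was the lowest array. The summed B cell list (5 of 6 measured) ranged from 16313 to 18153 in replicates 1 to 3. It was 19391 in replicate 4, and 17789 and 19590 with anti-ICOS. Without replicate 4, 2 of its 5 genes were higher and 0 lower. Of the dendritic cell list (10 measured) 5 were higher and 1 lower without replicate 4, against 17.1% and 12.7% of all genes. Its sums ranged from 12697 to 14113 in replicates 1 to 3, and were 11390 in replicate 4 and 13998 and 15152 with anti-ICOS. These sums were mostly Ccr7 and H2-Ab1, at 12.26 or more on every array, where no other gene of the list exceeded 10.95. Ccr7 read 12.80, 12.84 and 12.64 in replicates 1 to 3 and 12.26 in replicate 4. Replicate 4 was above replicates 1 to 3 in 4 of the 10 genes and below them in 5. Xcr1, Clec9a and Cd209a were below the array median throughout.

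Among these markers, 2 passed over all 6 arrays. The dendritic cell genes Flt3, a growth factor receptor, and Fscn1, which encodes an actin bundler, passed over all 6 arrays (1.26 ± 0.087 and 2.49 ± 0.20, limma adjusted p = 0.00321 and 0.00547) and against replicate 4 alone (1.16 ± 0.10 and 2.04 ± 0.14, adjusted p = 0.00547 and 0.00308). The myeloid adaptor gene Tyrobp did not pass over all 6 arrays (limma adjusted p = 0.0958). It read 7.43, 7.56 and 7.43 in anti-CD3 replicates 1 to 3, 8.15 in replicate 4, and 8.87 and 8.99 with anti-ICOS. Replicate 4 thus lay between the rest of its group and the anti-ICOS arrays, and the difference against it was 0.78.

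Without replicate 4, 4 of 6 NK cell, 3 of 6 neutrophil and 4 of 6 mast cell markers were higher. Of the CD8 T cell and the measured erythroid markers, 0 of 2 each were higher. No marker of these lists was lower, and 17.1% of all genes were higher and 12.7% lower. The neutrophil genes S100a9, Ly6g and Camp had negative differences that did not pass. Mpo and Elane read 7.27 and 7.17 on anti-ICOS replicate 1, and 9.12 and 8.60 on anti-ICOS replicate 2. Of 6 markers each, 4 NK cell, 4 neutrophil and 2 mast cell ones were below the array median on all arrays. So was 1 of the 2 erythroid markers. Summed intensity of the NK cell list was 2390 to 2592 in replicates 1 to 3, 3206 in replicate 4, and 3130 and 3084 with anti-ICOS. That sum was mostly Klrd1, at 11.02, 11.06 and 10.97 in replicates 1 to 3, 11.31 in replicate 4, and 11.21 and 11.20 with anti-ICOS. Replicate 4 was above replicates 1 to 3 in 3 of the 6 genes. For Ncr1 and Klrb1c it lay among them, and for Gzma it was the lowest array. In the same order summed intensity was 404 to 466, 372, and 501 and 1161 for neutrophils. For mast cells it was 306 to 320, 309, and 464 and 635. For CD8 T cells it was 3859 to 4128, 4704, and 4352 and 4509, and for erythroid cells 157 to 171, 147, and 158 and 185. Among the CD4+ T cell markers themselves, Cd3e, Cd4, Cd28 and Il7r were lower without replicate 4, and the list summed to between 31711 and 33982 in replicates 1 to 3, 29711 in replicate 4, and 27878 and 29144 with anti-ICOS. The part of any of these cells in the differences was not tested.

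The DNA core that HIF binds was common upstream of these genes. RefSeq promoters of GRCm38.p6 were matched by symbol for 34 of the 37, and not for Slc2a3, Bnip3l and Ndrg1. In the 250 bases before the start, ACGTG or GCGTG, read on both strands, was found for 32 of 34 genes (94.1%) and for 41.5% of all 27025 genes with a promoter. By windows, since a gene can have several starts, it was 78% of 50 windows against 38.6% of 32851, with ACGTG in 54% against 16.6% and GCGTG in 52% against 28.2%. The windows were also richer in CpG, with a median of 15 per window against 6. CACGTG, the E-box that MYC also binds, holds ACGTG on both strands and occurred in 12% of windows against 6.02%. The core was upstream of 26 of the 27 matched genes that were lower without replicate 4, and of 6 of the other 7. With 32 of 34 genes carrying it, its presence could not separate genes by their difference. Hk1 is among the 7 by its brightest probe set. A match in these letters is a description of the sequence and not a measured binding site.

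The stretches below show cores upstream of genes with and without a step. Of them, 6 belong to genes that were lower without replicate 4 and the last 2, Slc16a1 and Hif1a, to genes that were not. Tpi1, 4.35-fold lower without replicate 4, had 0 cores in its window and is not shown. Ldha is shown by the window with 5 cores and not by its other, with 1. The stretches, of 80 bases, were picked within their windows for holding the most cores. Each runs 5′ to 3′ on the gene's strand and ends before the start, with either core, on either strand, in capitals. They are, in order, chrX:106186942-106187021 (plus strand), chr7:46845724-46845803 (plus), chr4:119108665-119108744 (plus), chr11:120948987-120949066 (plus), chr7:138909552-138909631 (minus), chr8:45999934-46000013 (minus), chr3:104638456-104638535 (plus) and chr12:73907724-73907803 (plus), from RefSeq on GRCm38.p6.
Pgk1: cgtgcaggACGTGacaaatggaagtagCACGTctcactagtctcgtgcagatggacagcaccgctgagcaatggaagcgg
Ldha: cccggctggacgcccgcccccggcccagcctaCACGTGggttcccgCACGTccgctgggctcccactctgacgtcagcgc
Slc2a1: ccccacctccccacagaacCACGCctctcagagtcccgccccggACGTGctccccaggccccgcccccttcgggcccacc
Slc16a3: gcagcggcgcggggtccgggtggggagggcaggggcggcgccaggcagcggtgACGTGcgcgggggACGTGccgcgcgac
Bnip3: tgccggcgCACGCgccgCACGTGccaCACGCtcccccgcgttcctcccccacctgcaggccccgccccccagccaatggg
Ankrd37: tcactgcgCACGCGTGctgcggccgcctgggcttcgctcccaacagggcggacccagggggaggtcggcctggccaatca
Slc16a1: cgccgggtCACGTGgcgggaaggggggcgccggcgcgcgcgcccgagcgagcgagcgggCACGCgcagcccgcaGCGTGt
Hif1a: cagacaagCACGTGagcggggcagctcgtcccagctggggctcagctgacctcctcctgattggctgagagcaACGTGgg
The Ldha stretch holds CACGTG and a further CACGT, and the Slc16a3 stretch holds ACGTG at 2 places. Slc16a1 and Hif1a, whose differences did not pass against any reference, each carry CACGTG as well.

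Among the 4 transporters, 3 were lower without replicate 4, against 12.7% of all genes, and none passed over all 6 arrays. Slc2a1, the basal glucose transporter GLUT1, read 11.98, 11.86 and 11.86 in anti-CD3 replicates 1 to 3, 10.74 in replicate 4, and 10.72 and 10.74 with anti-ICOS. Replicate 4 was at the anti-ICOS level, more than 1 log2 unit below the rest of its group, so the groups met at a single array. The difference was -0.88 ± 0.34 (± SE, limma adjusted p = 0.417) over all arrays, -1.17 ± 0.068 without replicate 4 (adjusted p = 7.02e-05, 2.25-fold lower), and -0.0034 ± 0.091 against replicate 4 alone.

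Slc2a3, the high-affinity transporter GLUT3, had a smaller step. It read 11.37, 11.28 and 11.22 in anti-CD3 replicates 1 to 3, 10.92 in replicate 4, and 10.76 and 10.76 with anti-ICOS, with both anti-ICOS arrays below all anti-CD3 arrays. Its difference was -0.44 ± 0.13 over all arrays (adjusted p = 0.414), -0.53 ± 0.069 without replicate 4 (adjusted p = 0.00157) and -0.16 ± 0.093 against replicate 4.

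The lactate carriers went separate ways. Slc16a3, the exporter MCT4 and a HIF target, read 11.17, 11.15 and 11.10 in anti-CD3 replicates 1 to 3, 9.02 in replicate 4, and 9.00008 and 9.11 with anti-ICOS. Replicates 1 to 3 were close together, while replicate 4 lay between the anti-ICOS arrays. Without replicate 4 it was 4.25-fold lower (-2.09 ± 0.067, adjusted p = 1.97e-05); over all arrays the difference was -1.56 ± 0.60 (adjusted p = 0.417), and against replicate 4 it was 0.030 ± 0.090. Slc16a1, the broadly expressed carrier MCT1, read 8.27, 8.25 and 8.14 in anti-CD3 replicates 1 to 3, 8.33 in replicate 4, and 8.17 and 8.20 with anti-ICOS, and the groups overlapped. Its difference without replicate 4 was -0.036 ± 0.068, with a 95% interval from -0.19 to 0.12.

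In the preparatory steps of glycolysis, 7 of 10 measured genes were lower without replicate 4 and 1 was higher, against 12.7% and 17.1% of all genes. Hexokinase traps glucose in the cell, and its inducible form Hk2 read 8.35, 8.25 and 7.98 in anti-CD3 replicates 1 to 3, 7.35 in replicate 4, and 7.56 and 7.48 with anti-ICOS. Replicate 4 was the lowest of all 6 arrays, below both anti-ICOS arrays. Hk2 differed by -0.46 ± 0.26 over all arrays (adjusted p = 0.436), by -0.67 ± 0.11 without replicate 4 (adjusted p = 0.00398) and by 0.17 ± 0.15 against replicate 4, where its sign turned.

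Hk1, the constitutive hexokinase, was flat on its brightest probe set, with 13.31, 13.33 and 13.16 in anti-CD3 replicates 1 to 3, 13.29 in replicate 4, and 13.25 and 13.31 with anti-ICOS (difference 0.0070 ± 0.078, adjusted p = 0.965). That probe set is matched to 1 sequence which all 15 probe sets naming both Hk1 and the ribosomal protein gene Rpl17 also list. The other Hk1 probe set, matched to RefSeq transcripts, read 10.62, 10.76 and 10.68 in replicates 1 to 3, 10.42 in replicate 4, and 10.37 and 10.40 with anti-ICOS. There both anti-ICOS arrays and replicate 4 lay below replicates 1 to 3, with a difference of -0.24 over all arrays (adjusted p = 0.429) and -0.31 without replicate 4 (adjusted p = 0.0146 over all probe sets with 1 symbol). By this probe set Hk1 passed as lower without replicate 4 and would add 1 to the counts of lower genes. The level of Hk1 is therefore uncertain.

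Phosphofructokinase, the committing step, has a gene for each of 3 subunits, and all were lower without replicate 4. The liver-type subunit Pfkl read 10.79, 10.86 and 10.71 in anti-CD3 replicates 1 to 3, 9.02 in replicate 4, and 9.11 and 9.01 with anti-ICOS. The platelet-type Pfkp read 10.93, 10.96 and 10.74 in anti-CD3 replicates 1 to 3, 10.08 in replicate 4, and 9.99 and 9.89 with anti-ICOS. The muscle-type Pfkm read 9.33, 9.28 and 9.05 in anti-CD3 replicates 1 to 3, 8.69 in replicate 4, and 8.52 and 8.64 with anti-ICOS. In each, replicate 4 lay with the anti-ICOS arrays, and for Pfkl it was between the anti-ICOS values. Without replicate 4 the differences were -1.72 ± 0.073, -0.94 ± 0.085 and -0.64 ± 0.10 (adjusted p = 3.09e-05, 0.000345 and 0.00300). Over all 6 arrays they were -1.28 ± 0.50, -0.74 ± 0.24 and -0.51 ± 0.18, none past the threshold.

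The bifunctional enzymes that make and remove a sugar phosphate activator of phosphofructokinase did not follow. Pfkfb3 read 8.94, 8.97 and 8.88 in anti-CD3 replicates 1 to 3, 8.73 in replicate 4, and 8.98 and 9.11 with anti-ICOS, with replicate 4 lowest and both anti-ICOS arrays highest by a narrow margin (without replicate 4, 0.11 ± 0.070, adjusted p = 0.250). Pfkfb4 read 7.54, 7.57 and 7.28 in anti-CD3 replicates 1 to 3, 7.72 in replicate 4, and 7.78 and 7.77 with anti-ICOS. Both anti-ICOS arrays were above all anti-CD3 arrays, and it was higher by 0.31 ± 0.10 without replicate 4 (adjusted p = 0.0459). Over all arrays Pfkfb4 differed by 0.25 ± 0.12 (adjusted p = 0.423).

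Aldolase splits the phosphorylated sugar, and triose phosphate isomerase interconverts its products. Aldoa, the main isoform of muscle and blood cells, read 13.64, 13.60 and 13.54 in anti-CD3 replicates 1 to 3, 12.68 in replicate 4, and 12.70 and 12.73 with anti-ICOS. Aldoc, the isoform best known from brain, read 10.50, 10.58 and 10.28 in anti-CD3 replicates 1 to 3, 8.82 in replicate 4, and 8.34 and 8.61 with anti-ICOS. Tpi1 read 12.52, 12.59 and 12.55 in anti-CD3 replicates 1 to 3, 10.58 in replicate 4, and 10.33 and 10.54 with anti-ICOS. All 3 genes had replicate 4 near the anti-ICOS arrays, and for Aldoc and Tpi1 it stayed above both of them.

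Without replicate 4, Aldoa was 1.83-fold lower, Aldoc 3.95-fold and Tpi1 4.35-fold (adjusted p = 0.000160, 6.60e-05 and 3.09e-05). Over all arrays the differences were -0.65 ± 0.26, -1.57 ± 0.47 and -1.63 ± 0.56. Against replicate 4 they were 0.036 ± 0.087, -0.34 ± 0.15 and -0.15 ± 0.11, so Aldoc had the most negative estimate of the 37 genes in that comparison, with adjusted p = 0.988.

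Of the 5 measured genes of the energy-yielding steps, 4 were lower without replicate 4, against 12.7% of all genes. Pgk1, which makes the first ATP of the pathway, read 12.54, 12.59 and 12.41 in anti-CD3 replicates 1 to 3, 11.71 in replicate 4, and 11.45 and 11.44 with anti-ICOS. Both anti-ICOS arrays were below replicate 4, which in turn was below replicates 1 to 3. Pgk1 differed by -0.87 ± 0.24 over all arrays (adjusted p = 0.394), by -1.07 ± 0.074 without replicate 4 (adjusted p = 0.000117, 2.10-fold lower) and by -0.26 ± 0.10 against replicate 4 (adjusted p = 0.856).

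Pgam1, the phosphoglycerate mutase, read 11.35, 11.53 and 11.31 in anti-CD3 replicates 1 to 3, 10.38 in replicate 4, and 10.32 and 10.32 with anti-ICOS, and was 2.11-fold lower without replicate 4 (adjusted p = 0.000159). Pkm, the pyruvate kinase of proliferating cells and muscle, read 12.52, 12.62 and 12.41 in anti-CD3 replicates 1 to 3, 11.04 in replicate 4, and 11.17 and 11.18 with anti-ICOS. Its other probe set read 12.23, 12.21 and 12.20 in replicates 1 to 3, 10.81 in replicate 4, and 10.84 and 10.86 with anti-ICOS. The 2 probe sets gave the same picture, with replicate 4 lowest, and differed by -1.34 ± 0.077 and -1.36 without replicate 4 (adjusted p = 6.60e-05 for the brighter one).

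Ldha, which turns pyruvate into lactate, read 13.22, 13.28 and 13.27 in anti-CD3 replicates 1 to 3, 12.74 in replicate 4, and 12.63 and 12.63 with anti-ICOS. Its step was smaller than those of Pgk1, Pgam1 and Pkm, and both anti-ICOS arrays lay below all 4 anti-CD3 arrays. The difference was -0.50 ± 0.16 over all arrays (adjusted p = 0.414), -0.63 ± 0.061 without replicate 4 (adjusted p = 0.000464) and -0.10 ± 0.082 against replicate 4. Its promoter stretch, with 3 cores, is printed above.

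Eno2, the neuronal enolase, stood outside this group of genes. Its readings were 7.98, 7.87 and 7.98 in anti-CD3 replicates 1 to 3, 7.71 in replicate 4, and 7.99 and 7.99 with anti-ICOS. Replicate 4 was lowest, and the anti-ICOS arrays lay at the upper end of replicates 1 to 3, just above them (without replicate 4, 0.044 ± 0.066, adjusted p = 0.632).

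Both pyruvate dehydrogenase kinases among the 37 genes, which hold pyruvate back from the mitochondria, were lower without replicate 4. Pdk1, the HIF-induced kinase, read 10.64, 10.64 and 10.60 in anti-CD3 replicates 1 to 3, 10.08 in replicate 4, and 9.74 and 9.86 with anti-ICOS. Of the 37 genes it had the smallest p over all 6 arrays, with a difference of -0.69 ± 0.17 (adjusted p = 0.322), and both anti-ICOS arrays lay below all anti-CD3 arrays. Without replicate 4 the difference was -0.83 ± 0.066 (adjusted p = 0.000205), and against replicate 4 it was -0.28 ± 0.088 (adjusted p = 0.660). Pdk3 read 9.92, 10.01 and 9.66 in anti-CD3 replicates 1 to 3, 9.45 in replicate 4, and 9.34 and 9.40 with anti-ICOS. It had the same order of arrays with a smaller step, -0.49 ± 0.10 without replicate 4 (adjusted p = 0.0119). The kinases Pdk2 and Pdk4, placed in a further list, differed by -0.089 ± 0.077 and -0.12 ± 0.078 without replicate 4. Neither passed (limma adjusted p = 0.396 and 0.249), and Pdk4 was dim, at 6.03 or less on every array.

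The transcript of the factor itself did not follow its targets. Hif1a, the oxygen-regulated subunit, read 12.36, 12.35 and 12.25 in anti-CD3 replicates 1 to 3, 12.34 in replicate 4, and 12.23 and 12.21 with anti-ICOS, and replicate 4 lay within the range of replicates 1 to 3. Both anti-ICOS arrays were lowest, by less than the range of replicates 1 to 3. Its difference was -0.10 ± 0.069 over all arrays (adjusted p = 0.460) and -0.10 ± 0.066 without replicate 4, where the 95% interval ran from -0.25 to 0.05. HIF is controlled mainly through the stability of its protein, which arrays do not measure.

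Of the hydroxylases that act on it, Egln1 and Egln3, which are themselves hypoxia-induced, were both lower without replicate 4. Egln1 (PHD2), the main oxygen sensor, read 10.53, 10.61 and 10.32 in anti-CD3 replicates 1 to 3, 9.50 in replicate 4, and 9.33 and 9.41 with anti-ICOS. Egln3 (PHD3) read 10.32, 10.39 and 10.09 in anti-CD3 replicates 1 to 3, 8.80 in replicate 4, and 8.73 and 8.57 with anti-ICOS. For each gene both anti-ICOS arrays were below all anti-CD3 arrays, with replicate 4 next to them. Without replicate 4, Egln1 was 2.17-fold lower (adjusted p = 0.000241) and Egln3 3.07-fold (adjusted p = 8.56e-05). Over all arrays the differences were -0.87 ± 0.29 and -1.25 ± 0.43, and against replicate 4 they were -0.13 ± 0.12 and -0.15 ± 0.14. The related Egln2, placed in a further list, differed by 0.099 ± 0.086 without replicate 4 and did not pass (limma adjusted p = 0.391).

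**Figure D3:**
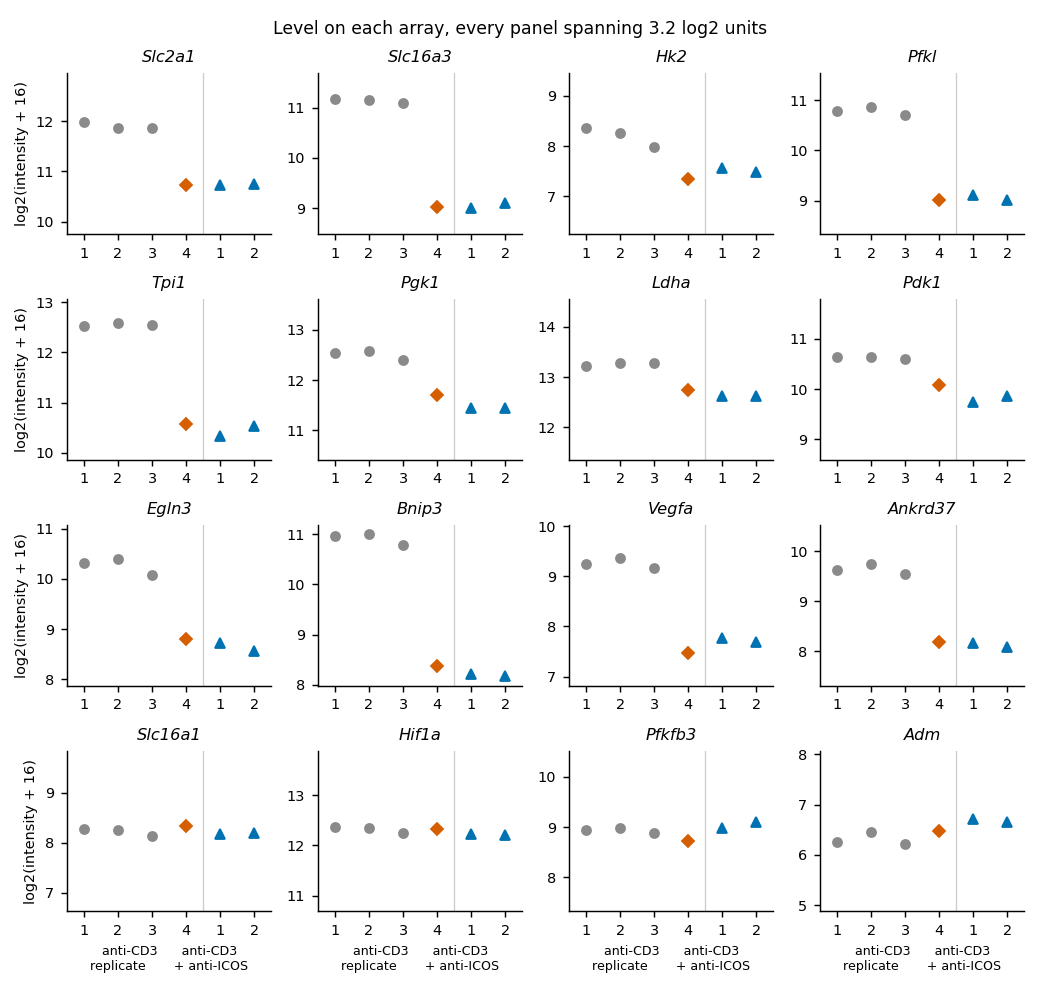
Each panel is 1 gene, chosen from the 6 roles to show steps of different size and 4 genes with no step down; the vertical axis is log2(intensity + 16), every panel spans the same range, and the horizontal axis gives the replicate. Grey circles are anti-CD3 replicates 1 to 3, orange diamonds replicate 4 and blue triangles the anti-ICOS arrays; in the upper 3 rows the last 3 points lie below the first 3, and in the lowest row (Slc16a1, Hif1a, Pfkfb3, Adm) they do not.

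Of the 13 other hypoxia-induced genes, 12 were lower without replicate 4 and 1, Adm, was higher, against 12.7% and 17.1% of all genes. Bnip3, a mitochondrial receptor for mitophagy and cell death, had the largest step of all 37. It read 10.97, 11.002 and 10.78 in anti-CD3 replicates 1 to 3, 8.38 in replicate 4, and 8.22 and 8.17 with anti-ICOS. Replicate 4 minus the mean of replicates 1 to 3 was -2.54, and the anti-ICOS arrays were slightly lower still. The difference was -2.09 ± 0.72 over all arrays (adjusted p = 0.414) and -2.72 ± 0.082 without replicate 4 (adjusted p = 1.97e-05, 6.60-fold lower). Its other probe set gave -1.73 and -2.27, and the upstream stretch printed above holds 4 cores.

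Bnip3l (NIX), its relative, had a shallower step at 12.63, 12.67 and 12.53 in anti-CD3 replicates 1 to 3, 12.06 in replicate 4, and 12.09 and 11.99 with anti-ICOS. Without replicate 4 it was 1.48-fold lower (adjusted p = 0.00143), and by its other probe set the difference was -0.72. Vegfa, the vascular growth factor, read 9.24, 9.37 and 9.17 in anti-CD3 replicates 1 to 3, 7.47 in replicate 4, and 7.78 and 7.69 with anti-ICOS. Here replicate 4 was the lowest array, so that Vegfa differed by -1.53 ± 0.079 without replicate 4 (adjusted p = 5.20e-05) and by 0.26 ± 0.11 against replicate 4 (adjusted p = 0.928).

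Ankrd37, a small ankyrin-repeat protein and early HIF target, read 9.61, 9.75 and 9.54 in anti-CD3 replicates 1 to 3, 8.20 in replicate 4, and 8.16 and 8.09 with anti-ICOS. Ndrg1, a stress-induced protein, read 10.59, 10.70 and 10.56 in anti-CD3 replicates 1 to 3, 9.27 in replicate 4, and 9.17 and 9.28 with anti-ICOS. For both, the values lay at the same 2 levels, with replicate 4 on the lower one, and the difference without replicate 4 was -1.51 ± 0.080 and -1.39 ± 0.073 (adjusted p = 5.59e-05 and 5.54e-05). Ddit4 (REDD1), an inhibitor of mTOR signalling, read 10.79, 10.85 and 10.61 in anti-CD3 replicates 1 to 3, 10.10 in replicate 4, and 9.91 and 9.97 with anti-ICOS. Both anti-ICOS arrays were below all anti-CD3 arrays, and the difference was -0.65 ± 0.20 over all arrays (adjusted p = 0.414) and -0.81 ± 0.084 without replicate 4 (adjusted p = 0.000613).

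The collagen prolyl 4-hydroxylase subunits differed in the order of the arrays. P4ha1 read 10.11, 10.13 and 9.94 in anti-CD3 replicates 1 to 3, 9.09 in replicate 4, and 9.06 and 8.99 with anti-ICOS, with both anti-ICOS arrays lowest. P4ha2 read 6.71, 6.73 and 6.64 in anti-CD3 replicates 1 to 3, 5.96 in replicate 4, and 6.20 and 6.21 with anti-ICOS, below the array median on every array and with replicate 4 lowest. Without replicate 4 the differences were -1.04 ± 0.078 and -0.49 ± 0.063 (adjusted p = 0.000163 and 0.00157), and against replicate 4 they were -0.063 ± 0.10 and 0.24 ± 0.085.

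The remaining genes of the role had smaller steps. The histone demethylase gene Kdm3a was 1.35-fold lower without replicate 4, the oxidoreductase gene Ero1a, active in protein folding, 1.63-fold, and the MYC antagonist gene Mxi1 1.26-fold (adjusted p = 0.00663, 0.00185 and 0.0312). Higd1a, a mitochondrial inner membrane protein, was 1.56-fold lower (adjusted p = 0.000846), but by its dimmer probe set the difference was -0.27 and did not pass (adjusted p = 0.0767), with replicate 4 at 7.14 above replicate 3 at 7.09. In all 4 genes replicate 4 was below replicates 1 to 3 by the brightest probe set.

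Adm, the vasodilator peptide adrenomedullin, went the other way. It read 6.25, 6.46 and 6.22 in anti-CD3 replicates 1 to 3, 6.48 in replicate 4, and 6.72 and 6.66 with anti-ICOS, so the anti-ICOS arrays were the 2 highest and replicate 4 was the highest of its group. Adm differed by 0.33 ± 0.10 over all arrays (adjusted p = 0.414), by 0.38 ± 0.085 without replicate 4 (adjusted p = 0.0146) and by 0.21 ± 0.11 against replicate 4. It was below the array median on every array.

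Other genes around the pathway were taken from lists written by function, and counts without replicate 4 are to be read against the 12.7% of all genes that were lower and the 17.1% that were higher. Of 21 measured further glycolytic genes (24 listed), mostly isoforms of other tissues, 3 were lower and 5 higher without replicate 4, near those shares, with a median of -0.04, equal to that of all genes. The muscle enolase Eno3 differed by -0.12 ± 0.086, hexokinase Hk3 by 0.24 ± 0.076, the testis isoform Pgk2 by -0.22 ± 0.10 and the muscle mutase Pgam2 by -0.073 ± 0.090, none past the threshold. Pgm1, a phosphoglucomutase linking glycogen to glycolysis that was picked after its values were seen, was lower (difference -1.49 ± 0.10). By limma over all 6 arrays 0 genes of this list passed, with 2 lower and 3 higher at an unadjusted p under 0.05.

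Of 34 measured further HIF targets (36 listed), 14 were lower and 3 higher without replicate 4, with a median of -0.19. Fam162a and Hilpda, a mitochondrial protein and a lipid droplet protein, were lower, with differences of -1.11 ± 0.13 and -0.71 ± 0.069 (adjusted p = 0.00114 and 0.000460). The carbonic anhydrases Car9 and Car12 differed by -0.26 ± 0.093 and 0.056 ± 0.087 and did not pass. Ak4, a mitochondrial adenylate kinase picked after its values were seen, read 10.08, 10.17 and 9.83 in anti-CD3 replicates 1 to 3, 7.32 in replicate 4, and 7.01 and 6.93 with anti-ICOS, a step of -3.06 ± 0.10 without replicate 4 that is larger than that of Bnip3.

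Hmox1, heme oxygenase, was the 1 gene of this list past the test over all 6 arrays, and it was higher. It read 7.47, 7.72 and 7.62 in anti-CD3 replicates 1 to 3, 7.86 in replicate 4, and 8.98 and 8.99 with anti-ICOS, so replicate 4 stayed with its own group. The difference was 1.32 ± 0.11 over all arrays (adjusted p = 0.00675), 1.38 ± 0.084 without replicate 4 (adjusted p = 7.87e-05) and 1.12 ± 0.11 against replicate 4 (adjusted p = 0.0106). It was thus past the threshold against each reference, unlike any of the 37 genes.

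The genes that control HIF gave counts near the background. Of 14 measured regulators, 0 were lower and 3 higher without replicate 4, against 12.7% and 17.1% of all genes, and the 3 were the coactivators Ep300 and Crebbp and the asparaginyl hydroxylase Hif1an (0.34 ± 0.065, 0.52 ± 0.061 and 0.33 ± 0.10). The HIF subunits Epas1, Hif3a, Arnt and Arnt2 differed by 0.17 ± 0.10, -0.062 ± 0.070, 0.10 ± 0.065 and -0.12 ± 0.060, none past the threshold.

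On the way into the mitochondria, 1 of 11 measured genes (12 listed) was lower and 2 higher without replicate 4. The pyruvate carrier Mpc1 and the pyruvate dehydrogenase genes Pdha1, Pdhb and Dlat differed by 0.074 ± 0.090, 0.18 ± 0.067, 0.18 ± 0.073 and 0.15 ± 0.081 and did not pass. In the pentose phosphate pathway, which draws sugar away from glycolysis, 2 of 6 measured genes (7 listed) were lower and 4 higher. Pgd, which yields NADPH, was lower, at -0.31 ± 0.066, whereas Pgls, Rpia and Rpe were higher by 0.24 ± 0.072, 0.74 ± 0.11 and 0.30 ± 0.077.

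Among MYC and mTOR genes, 1 of 17 was lower and 9 were higher without replicate 4, with a median of 0.26. Myc read 9.85, 9.84 and 9.68 in anti-CD3 replicates 1 to 3, 10.37 in replicate 4, and 10.47 and 10.50 with anti-ICOS, the reverse order of the glycolytic genes, with replicate 4 again beside the anti-ICOS arrays. Myc was higher by 0.69 ± 0.075 (adjusted p = 0.000716) and the MYC antagonist Mxd1 by 0.27 ± 0.063, Mxd3, of the same family, was lower, at -0.95 ± 0.082, and the MYC partner Max differed by 0.027 ± 0.087. By limma over all 6 arrays 0 genes passed in the lists of regulators, pyruvate entry, the pentose phosphate pathway and MYC and mTOR. At an unadjusted p under 0.05 these lists had 0, 1, 0 and 1 lower genes and 1, 0, 1 and 5 higher ones.

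Genes of cell division were lower on the same arrays as the glycolytic genes. All 23 measured genes of the list (24 listed) were lower without replicate 4, with a median of -0.998, and by limma 0 passed over all 6 arrays or against replicate 4, where 21 and 1 were lower at an unadjusted p under 0.05. The proliferation marker Mki67 read 11.84, 11.79 and 11.87 in anti-CD3 replicates 1 to 3, 10.88 in replicate 4, and 10.85 and 10.80 with anti-ICOS. Top2a, Cdk1 and Ccna2, which act in chromosome separation and the division cycle, were lower, with differences of -1.18 ± 0.068, -0.90 ± 0.083 and -1.11 ± 0.088. Summed intensity of the list was 42870, 43508 and 39768 in replicates 1 to 3, 22416 in replicate 4, and 20657 and 21871 with anti-ICOS. The part of proliferation in the glycolytic differences was not tested.

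**Figure D4:**
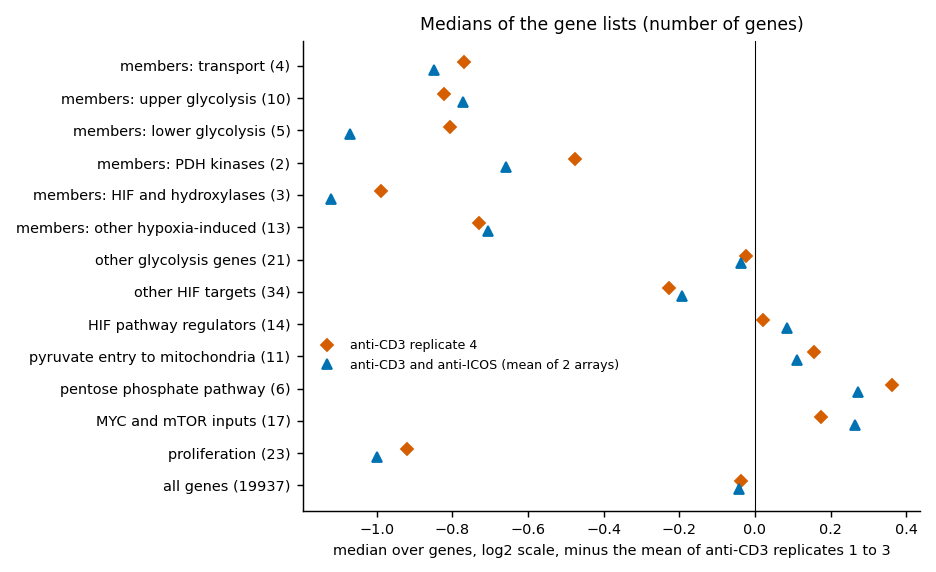
Each row is a gene list with its number of measured genes; the horizontal axis is the median over its genes of the log2 difference from the mean of anti-CD3 replicates 1 to 3. Orange diamonds are anti-CD3 replicate 4 and blue triangles the mean of the 2 anti-ICOS arrays; the 6 roles and the proliferation list lie left of 0 for both, all genes lie near 0, and each diamond lies on the same side of 0 as its triangle.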

How the data were processed

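RNA of 6 cultures of mouse CD4+ T cells was hybridised to Affymetrix Mouse Gene 1.0 ST arrays. The authors deposited linear intensities, 1 value for each probe set and array, from 7.23 to 22176. MAS5 is named, per the submitters' processing notes. How they were normalized, background-corrected and summarised is not stated in the labels used here, so whether arrays were scaled to 1 common level is unknown. Since arrays hold no counts, their number limits the precision.

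Of 34760 probe sets, 21640 carried 1 gene symbol in GEO's platform annotation, 1321 several and 11799 none here. A gene with several probe sets was represented by the brightest, giving 19937 genes. Levels are log2(intensity + 16), which makes fold changes of dim genes smaller. The groups, taken from the sample titles, were compared over all genes by lmFit and eBayes of limma 3.58.1 (R 4.3.3), with two-sided p-values adjusted by Benjamini-Hochberg and a threshold of 0.05. Where anti-CD3 replicate 4 alone is the reference, the fit uses all 6 arrays, but the spread comes from the arrays other than replicate 4. The steps were tested on simulated data. In those data each gene had the same spread on all arrays and no array departed from its group. They do not cover an array set apart, as replicate 4 was.

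The genes, their 6 roles and the other lists were chosen with earlier results of these data known, and are no independent support. Values per array are given for the 3 genes of smallest p in each role, for gene families, and for some others; from each further list the first 4 measured genes in written order are named, other names being marked as picked after their values were seen or belonging to a count of 5 or fewer. Alternatives were offsets of 1 and 64, quantile normalization, a filter on the dimmest 40% of genes, probe set means, a prior both trended and robust, quality weights for arrays, replicate number as a block and each array left out. The other probe sets of Hk1, Bnip3, Bnip3l, Pkm and Higd1a were added after the data were seen. Promoter sequences are RefSeq's (GRCm38.p6). Plots used matplotlib 3.10.9 (Python 3.11.15).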

Additional observations from a re-analysis of the deposited data

Results flagged for a closer look

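In 13 of the 37 genes anti-CD3 replicate 4 stood apart, with a gap to the nearest anti-CD3 array of 0.863 to 0.966 of the group's range, above Dixon's 95% limit for 4 arrays. On the log2 scale replicate 4 read 10.74 for the glucose transporter Slc2a1, 9.02 for the lactate exporter Slc16a3, and 9.02 for Pfkl, 12.68 for Aldoa, 10.58 for Tpi1, 11.04 for Pkm and 12.74 for Ldha among the glycolytic enzymes. It read 10.08 for the kinase gene Pdk1, 8.38 for Bnip3, 7.47 for Vegfa, 8.20 for Ankrd37, 5.96 for P4ha2 and 9.27 for Ndrg1 among the hypoxia-induced genes. In each of the 13 it was the lowest array of its group. Chance alone flags about 1 in 20 groups, counting any of the 4 arrays, and genes measured on the same array are not independent. Over all 19937 genes replicate 4 stood apart in 1197, and the other 3 anti-CD3 arrays together in 535; among the 37 genes no other array did.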

How the results depend on the processing

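The number of the 37 genes past the test was 0 with offsets of 1 and 64, quantile normalization, the filter (35 genes left), probe set means and a trended prior, and the median difference stayed between -0.59 and -0.65. It was 33 (31 lower, 2 higher) with array quality weights, which gave anti-CD3 replicate 4 a weight of 0.150 against 4.53 for replicate 1. With 1 array left out the number ranged from 0 to 32 and the median from -0.55 to -0.81; only without anti-CD3 replicate 4 was it 32. With replicate number as a block it was 32 (30 lower, 2 higher). Anti-CD3 replicates 3 and 4, whose numbers no anti-ICOS array shares, then add nothing to the difference. The labels do not say that numbers pair cultures, and the differences of replicates 1 and 2 correlated between the groups at r = 0.0573 over genes, which are not independent replicates.

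Against replicate 4 alone the sign turned for 10 genes: Slc16a3 (0.030), Hk1 (-0.0074), Hk2 (0.17), Pfkl (0.043), Aldoa (0.036), Pkm (0.14), Vegfa (0.26), P4ha2 (0.24), Ero1a (0.023) and Mxi1 (0.0050). Hk1, near 0 throughout, also turned with probe set means (-0.12), weights (-0.026), the block (-0.044), without anti-CD3 replicate 3 (-0.032) or anti-ICOS replicate 2 (-0.023; 0.037 without anti-ICOS replicate 1) and on its other probe set (-0.24). The cause was not tested. Signal over background cannot be judged from these values, but P4ha2 and Adm lay below the array median on every array.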
